A study of Mus musculus with 401 samples.

Results

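Oocytes from mice at 2 months and at 9 months were compared in the second of the 2 sets of mice in this series. The members were the oocyte libraries of the second set labelled with a 2-month mouse (24 libraries) or a 9-month mouse (16 libraries), together 40 of the 255 libraries of that set and of the 401 libraries of the series. The other libraries were cumulus cells, the somatic cells around each oocyte, and oocytes of other ages, of mice at 2 months without hyperovulation and of the first set. The 24 oocytes at 2 months came from the mice 2mo1, 2mo2, 2mo34, 2mo35 and 2mo36, with 8 oocytes of 2mo34 and 4 of each other mouse. The 16 oocytes at 9 months came from 9mo21, 9mo22, 9mo23 and 9mo24, with 4 oocytes each. All 9 mice were B6D2F1 females (the first-generation hybrid of C57BL/6 and DBA/2) fed ad libitum, and were hyperovulated, that is injected with a hormone preparation that makes many follicles grow at once. Each library came from 1 fully grown oocyte in prophase arrest, which had been stripped of its cumulus cells and kept in medium with IBMX, an inhibitor that holds oocytes in arrest. Per the study's methods only a part of the lysate of an oocyte went into its library, so a transcript without a count may still be present in the oocyte. Oocytes of 1 mouse share that mouse, so the mouse was the unit of all tests. The libraries were made on 2 plates. Plate B1 held 2mo1, 2mo2, 2mo34, 9mo21 and 9mo22, and plate B2 held 2mo35, 2mo36, 9mo23 and 9mo24. On both plates the 2 ages stood in different columns, so plate column and age cannot be told apart.

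A fully grown oocyte no longer transcribes its genome to any large extent. It lives on transcripts stored during growth, and these stored transcripts serve meiotic maturation, fertilization and the first cell cycle of the embryo. Chaperones, the proteins that help others fold, are part of that store. In the endoplasmic reticulum (ER) the chaperones Hsp90b1, Hspa5, calreticulin and calnexin fold secreted and membrane proteins, among them the proteins of the zona pellucida, while the constitutive chaperone Hspa8 serves the cytosol. With increasing age of the female, mammalian oocytes lose cohesion between chromosomes and segregate them less accurately.

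Depth was alike at both ages. Total counts ranged from 1719013 to 2433019 (median 2118731) per oocyte at 2 months, with 18877 to 20425 genes detected, and from 1860244 to 2285198 (median 2117775) at 9 months, with 19158 to 20093 genes detected. The 13 oocyte markers summed to 18520 to 28350 CPM (counts scaled to a fixed library total after TMM normalization) in oocytes at 2 months and 19870 to 30420 CPM in oocytes at 9 months, against 0 to 14.7 CPM in the cumulus libraries of these mice. Stella (Dppa3), Oct3/4 (Pou5f1) and Nfya, which mark fully grown oocytes, stood at 146 ± 10.7, 70.0 ± 2.00 and 592 ± 17.2 CPM at 2 months (mean ± SD of 5 mice) and at 149 ± 6.90, 65.5 ± 3.36 and 554 ± 19.6 CPM at 9 months (4 mice), and none of them passed the test. The mouse means of Nfya did not overlap, however, at 576 to 621 and 533 to 574 CPM (log2 fold change -0.10 ± 0.04, SE). This held for 2.44% of all genes tested. Being scaled to the library, a level in CPM says nothing of the amount of RNA in an oocyte.

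A gene was taken as a DEG between 9 and 2 months at an FDR (Benjamini-Hochberg adjusted p) under 0.05 in the quasi-likelihood test of edgeR. The test ran on counts summed per mouse, with plate as a covariate. Of 24384 genes tested, 21 were DEGs (0.0861%), with 10 higher (0.041%) and 11 lower (0.0451%) at 9 months. An unadjusted p under 0.05 was reached by 1869 genes (7.66%), 3.64% of all genes being higher and 4.03% lower. The median log2 fold change of all genes tested was -0.006. Most changes were small: 7 of the 21 DEGs changed by at least 1 on the log2 scale, and the smallest change was 0.29. The mouse means of the 2 ages did not overlap for any of the 21 DEGs, and did not overlap for 596 of the 24384 genes tested (2.44%), with 308 higher (1.26%) and 288 lower (1.18%). Single oocytes overlapped more. In 19 of the 21 DEGs some oocytes at 9 months lay beyond every oocyte at 2 months, but in none did all 16. The share of all genes with such oocytes was not counted, and a single extreme oocyte needs no difference between the ages. All 21 changed in the same direction on plate B1 and on plate B2. As they were chosen in a fit of both plates together, such agreement is favoured by that choice. The share of all genes with the same direction on both plates was not counted. Within a plate alone, with 2 mice at 9 months, 0 genes were DEGs by the same test (1992 genes at an unadjusted p under 0.05 on B1 and 1632 on B2). The number of DEGs depended on single mice, with 6 without 2mo35 or 9mo21, 9 without 9mo22 and 10 without 2mo34 or 9mo24. Slc23a3, Cc2d2a, Cdo1, Sirpb1c and Sirpb1b were DEGs whichever mouse was left out. Of the DEGs, 8 had a mean under 10 CPM and were named after their values were seen: Cc2d2a, Syde1, Xlr5b, Adcy2, Sirpb1a, Sirpb1b, Sirpb1c and Cdc5l.

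**Figure D1:**
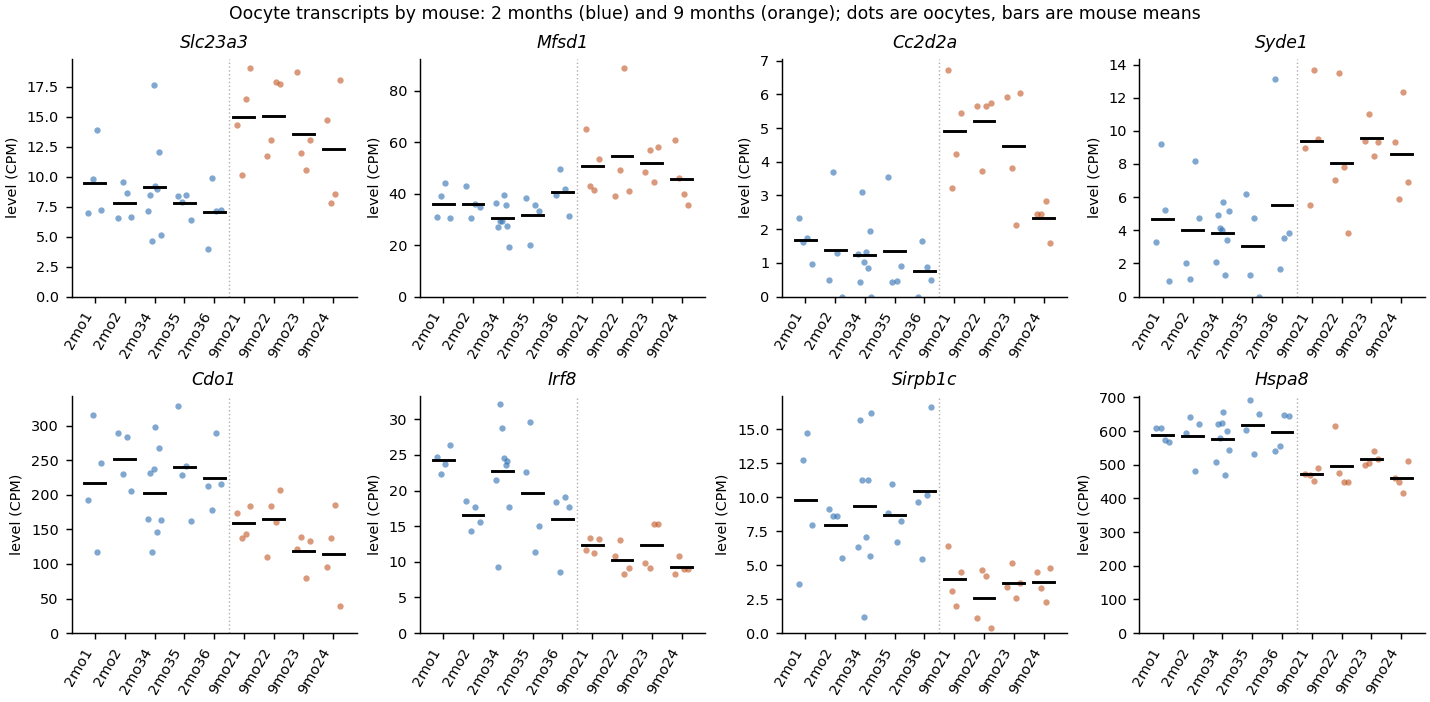
Levels (CPM, linear axes from 0) of 8 DEGs in the 40 oocytes, by mouse. Dots are single oocytes, black bars are mouse means, blue is 2 months and orange 9 months. The mouse means of the 2 ages do not overlap for any of the 8, while single oocytes do. For Slc23a3 the 5 mice at 2 months lie between 7.02 and 9.46 CPM and the 4 at 9 months between 12.3 and 15.1 CPM.

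The lower DEGs included 3 neighbouring genes, Sirpb1c, Sirpb1b and Sirpb1a, which lie together within chr3:15371653-15848528 on the minus strand (GRCm38). They encode signal regulatory proteins beta, receptors of the immunoglobulin superfamily that are best known from myeloid cells. Sirpb1c stood at 9.79, 7.98, 9.35, 8.69 and 10.5 CPM in 2mo1, 2mo2, 2mo34, 2mo35 and 2mo36, and at 3.99, 2.59, 3.71 and 3.73 CPM in 9mo21 to 9mo24. Every mouse at 9 months was thus below every mouse at 2 months. Over oocytes its lowest, median and highest levels were 1.18, 8.74 and 16.7 CPM at 2 months and 0.397, 3.55 and 6.41 CPM at 9 months. The mean fell from 9.26 ± 0.973 to 3.51 ± 0.624 CPM (SD), and its log2 fold change was -1.40 ± 0.15 (SE, FDR = 0.00128). Sirpb1b fell from 6.55 ± 0.701 CPM, with mice between 5.59 and 7.53, to 2.74 ± 0.348 CPM, with mice between 2.24 and 2.98 (log2 fold change -1.25 ± 0.15, FDR = 0.00291). Sirpb1a fell from 7.01 ± 0.697 CPM, with mice between 6.13 and 7.81, to 3.36 ± 0.944 CPM, with mice between 2.47 and 4.503 (log2 fold change -1.05 ± 0.17, FDR = 0.0211). All 16 oocytes at 9 months lay below the median of the oocytes at 2 months for Sirpb1c and Sirpb1b, and 15 of 16 for Sirpb1a.

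These 3 genes are near copies. The mapping shared reads between genes with the same sequence, and 51.9% of the exonic 50-base windows of Sirpb1c, 58.0% of Sirpb1b and 40.4% of Sirpb1a occur in another gene. The likeness reaches into their promoters. Shown here is a matching stretch of 120 bases upstream of each gene (RefSeq, GRCm38.p6, minus strand), which begins 198 bases before the annotated start in Sirpb1c, 157 in Sirpb1b and 250 in Sirpb1a, with capitals at bases that differ from Sirpb1c. Sirpb1b matches Sirpb1c at 116 of the 120 bases (96.67%) and Sirpb1a at 114 (95.0%).
Sirpb1c, chr3:15848566-15848685: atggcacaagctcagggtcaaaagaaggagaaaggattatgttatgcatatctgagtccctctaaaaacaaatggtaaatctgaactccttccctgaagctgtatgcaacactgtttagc
Sirpb1b, chr3:15575103-15575222: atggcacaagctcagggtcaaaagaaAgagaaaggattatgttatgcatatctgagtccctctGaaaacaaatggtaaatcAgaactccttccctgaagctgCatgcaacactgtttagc
Sirpb1a, chr3:15426558-15426677: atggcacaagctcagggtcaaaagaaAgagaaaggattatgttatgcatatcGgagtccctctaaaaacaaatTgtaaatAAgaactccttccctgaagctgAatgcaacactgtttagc
How much each copy contributes is therefore uncertain. Summed over the 3 genes, 1153 counts at 2 months and 323 at 9 months gave a log2 fold change of -1.25 ± 0.11 (FDR = 0.000118). All 3 genes were listed at 0 in the cumulus cells of the same mice.

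Irf8, a transcription factor of the interferon regulatory family that is known for its role in myeloid cells, was also lower. It stood at 24.3, 16.5, 22.7, 19.6 and 15.96 CPM in the 5 mice at 2 months and at 12.4, 10.3, 12.4 and 9.30 CPM in the 4 mice at 9 months, again without overlap. The lowest, median and highest oocytes were at 8.64, 20.2 and 32.1 CPM at 2 months and at 8.28, 10.8 and 15.4 CPM at 9 months. The log2 fold change was -0.83 ± 0.13 (FDR = 0.0203). None of its counts were shared with another gene. Since Irf8 and the Sirpb1 genes are known from immune cells, immune markers were looked at beside them. Ptprc, C1qa and Adgre1 were at 0 in all 40 oocytes, and the 6 immune markers summed to 7.70 to 16.8 CPM at 2 months and 8.86 to 17.6 CPM at 9 months, most of it Csf1r (10.3 ± 1.06 CPM in 5 mice and 11.04 ± 1.06 CPM in 4 mice). Of these 6 markers 2 were expressed highly enough to be tested, Csf1r (log2 fold change 0.13 ± 0.11) and Cd68 (0.02 ± 0.29), and neither passed the test.

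Cdo1, cysteine dioxygenase, which breaks down cysteine on the way to taurine, had the second lowest p of all genes. Its levels were 218, 252, 203, 240 and 224 CPM in the mice at 2 months and 160, 166, 118 and 114 CPM in those at 9 months. All 16 oocytes at 9 months were below the median of the oocytes at 2 months. The mean fell from 228 ± 19.1 to 140 ± 26.8 CPM (log2 fold change -0.70 ± 0.08, FDR = 0.00291). The plates differed in size but not in direction, with -0.48 on B1 and -0.96 on B2. With voom on libraries Cdo1 was not called (FDR = 0.059, limma). Nedd4, a ubiquitin ligase of the HECT type, fell from 57.3 ± 6.85 CPM, with mice between 48.8 and 64.2, to 37.5 ± 4.24 CPM, with mice between 34.9 and 43.9 (log2 fold change -0.61 ± 0.09, FDR = 0.0129), with -0.44 on B1 and -0.82 on B2. Nedd4 was far higher in the cumulus cells of these mice, at 1206 ± 191 and 1257 ± 190 CPM, and the part of cumulus RNA in its oocyte level was not tested. Cdc5l, a component of the spliceosome, fell from 5.65 ± 0.604 to 2.54 ± 1.003 CPM (log2 fold change -1.14 ± 0.20, FDR = 0.0455). Its mice at 2 months lay between 5.09 and 6.51 CPM, while 9mo21, 9mo23 and 9mo24 were at 2.2, 2.03 and 1.90 CPM and 9mo22 at 4.03 CPM. It shares 36.6% of its exonic windows with other genes, and it was called in 1 of the 9 fits that left out a mouse, the fit without 9mo22.

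The other 4 lower DEGs were 1 chaperone and its copies. Hspa8, the constitutive cytosolic chaperone of the Hsp70 family (chr9:40800984-40810087), stood at 590, 585, 575, 618 and 597 CPM in the mice at 2 months and at 472, 497, 516 and 460 CPM in those at 9 months. The groups did not overlap, and 15 of 16 oocytes at 9 months were below the median at 2 months. The mean fell from 593 ± 16.3 to 486 ± 25.2 CPM (log2 fold change -0.30 ± 0.04, FDR = 0.00874). The processed pseudogenes Gm8355 and Gm15459 and the noncoding RNA Gm26825 fell by 0.31 each on the log2 scale (SE 0.05 each, FDR = 0.0203, 0.0203 and 0.0176). These are not 4 independent results. Of the exonic windows, 98.8% of Gm15459, 93.3% of Gm26825 and 65.9% of Gm8355 occur in other genes, and Gm15459 and Gm26825 cover the same bases on opposite strands. Together with the pseudogene Gm6210 (log2 fold change -0.30 ± 0.06, FDR = 0.109) the group held 54734 counts at 2 months and 29370 at 9 months, and as 1 unit it fell by 0.30 ± 0.04 on the log2 scale (FDR = 0.00495).

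Among the higher DEGs, Cc2d2a had the largest change. It encodes a protein of the transition zone at the base of cilia. Its levels were 1.66, 1.37, 1.24, 1.34 and 0.753 CPM in the mice at 2 months and 4.90, 5.19, 4.48 and 2.34 CPM in those at 9 months. All 16 oocytes at 9 months were above the median of 0.984 CPM at 2 months, and 10 were above every oocyte at 2 months. It rose by 1.81 ± 0.23 on the log2 scale (FDR = 0.00332). It is a low transcript in oocytes, with 64 counts in the 24 oocytes at 2 months and 144 in the 16 at 9 months. It stood at 64.8 ± 14.2 and 77.3 ± 17.8 CPM in the cumulus cells of these mice, so cumulus markers were summed in the same oocytes. The 12 cumulus markers summed to 311 ± 25.9 CPM in the mice at 2 months and 319 ± 10.1 CPM at 9 months (exact permutation test of 5 against 4 mice, two-sided, p = 0.540, where the smallest p possible is 0.0159). Cc2d2a was again a DEG with this sum as a covariate. The marker Inha stood at 8.87 ± 4.45 and 11.8 ± 2.87 CPM in these oocytes and at 2971 ± 609 and 3573.5 ± 227 CPM in cumulus cells. How much of the sum was the oocytes' own RNA is not known, so it cannot measure cumulus RNA in them. The part of cumulus RNA in the Cc2d2a level was not tested.

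Syde1, a GTPase-activating protein, rose from 4.22 ± 0.937 CPM, with mice between 3.055 and 5.54, to 8.91 ± 0.699 CPM, with mice between 8.06 and 9.54 (log2 fold change 1.08 ± 0.16, FDR = 0.0107). Adcy2, an adenylyl cyclase that makes cyclic AMP, rose from 4.94 ± 1.29 CPM, with mice between 3.63 and 6.99, to 8.93 ± 0.751 CPM, with mice between 8.01 and 9.70 (log2 fold change 0.86 ± 0.14, FDR = 0.0253). Both are low transcripts, each without a count in 1 of the 24 oocyte libraries at 2 months and with counts in all 16 at 9 months. Xlr5b, of a gene family on the X chromosome related to synaptonemal complex proteins, rose from 2.39 ± 0.545 to 5.20 ± 0.431 CPM (log2 fold change 1.16 ± 0.18, FDR = 0.0176). As 90.7% of its exonic windows occur in other genes, Xlr5a, Xlr5b and Xlr5c were also summed, with 487 counts at 2 months and 636 at 9 months, and rose together by 0.95 ± 0.14 (FDR = 0.0117).

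The other 6 higher DEGs were Slc23a3, Mfsd1, Tcn2, Cd7, Fbxw13 and Hsp90b1. Slc23a3, of the family of ascorbate and nucleobase transporters, stood at 9.46, 7.81, 9.17, 7.78 and 7.02 CPM in the mice at 2 months and at 14.99, 15.09, 13.6 and 12.3 CPM in those at 9 months. It rose by 0.78 ± 0.10 on the log2 scale (FDR = 0.00595), and by about as much on both plates (0.76 on B1 and 0.81 on B2). Mfsd1, a transporter of the lysosomal membrane, rose from 35.01 ± 3.98 to 50.7 ± 3.78 CPM (log2 fold change 0.55 ± 0.09, FDR = 0.0202), and all 16 oocytes at 9 months were above the median of 35.1 CPM at 2 months. Tcn2, transcobalamin, which carries vitamin B12, rose from 31.02 ± 3.995 to 43.3 ± 2.28 CPM (log2 fold change 0.47 ± 0.08, FDR = 0.0375), with 0.62 on B1 and 0.29 on B2. Cd7, a surface glycoprotein known from T cells, rose from 37.4 ± 4.20 to 50.7 ± 5.41 CPM (log2 fold change 0.46 ± 0.08, FDR = 0.0455). It shares 10.8% of its exonic bases with Gm11775 on the opposite strand, and the strandedness of the counts is not given in the sources used here. Fbxw13, of a family of F-box proteins that choose substrates for ubiquitin ligases, had the tightest groups. Its mice at 2 months lay between 143 and 152 CPM and those at 9 months between 176 and 190 CPM (log2 fold change 0.29 ± 0.04, FDR = 0.0176).

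Hsp90b1 (Grp94, the Hsp90 chaperone of the ER, chr10:86690209-86705509, minus strand) was the only DEG in any of the 37 gene lists examined. Its levels were 113, 112, 95.1, 118 and 119 CPM in the mice at 2 months and 143, 141, 139 and 152 CPM in those at 9 months. Every mouse at 9 months was above every mouse at 2 months, and 15 of 16 oocytes at 9 months were above the median at 2 months. The mean rose from 111 ± 9.63 to 144 ± 5.46 CPM (log2 fold change 0.36 ± 0.06, FDR = 0.0202). Part of its exonic bases (10.3%) overlap 1810014B01Rik on the opposite strand. Hsp90b1 stood higher in the cumulus cells of these mice, at 613 ± 135 and 647 ± 76.7 CPM, where it changed by 0.01 ± 0.10 (log2).

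The list of ER and integrated stress genes held 24 genes, all tested, of which 1 was a DEG. An unadjusted p under 0.05 was reached by 6, all higher at 9 months, and none lower, against 3.64% of all genes higher and 4.03% lower. Of all 24, 17 had a positive log2 fold change, with a median of 0.12, against 47.98% of all genes tested and a median of -0.006. The 6 were chaperones and folding enzymes of the ER lumen and membrane. Besides Hsp90b1 they were Canx (calnexin), at 364 ± 24.4 and 409 ± 23.9 CPM (log2 fold change 0.16 ± 0.05), Calr (calreticulin), at 301 ± 29.8 and 340 ± 29.5 CPM (0.18 ± 0.07), and Hspa5 (BiP), at 97.9 ± 13.4 and 110 ± 7.42 CPM (0.18 ± 0.08). The last of them were the disulfide isomerases Pdia3, at 62.0 ± 8.69 and 71.6 ± 3.73 CPM (0.21 ± 0.08), and Pdia4, at 121 ± 9.25 and 132 ± 7.14 CPM (0.13 ± 0.06). None of these 5 was a DEG (FDR between 0.424 and 0.632), and in all 5 the mouse means of the 2 ages overlapped. Most of the 5 changed little in other mice. In the first set Canx had a log2 fold change of 0.21 ± 0.16, Calr -0.08 ± 0.16 and Hspa5 -0.17 ± 0.40. Pdia3 had 0.05 ± 0.27 there and Pdia4 0.06 ± 0.13. Between 4 and 14 months Canx had 0.16 ± 0.05, Calr 0.05 ± 0.04 and Hspa5 0.01 ± 0.12. Pdia3 then had 0.005 ± 0.07 and Pdia4 -0.04 ± 0.04. The sensors and transcription factors of the pathway had log2 fold changes of -0.06 ± 0.04 for Ern1, 0.03 ± 0.06 for Atf6, 0.15 ± 0.16 for Eif2ak3, 0.13 ± 0.14 for Atf4 and 0.20 ± 0.12 for Ddit3, and none of these 5 reached an unadjusted p under 0.05. Xbp1 and Herpud1 were hardly detected, at 0.4661 ± 0.219 and 0.296 ± 0.126 CPM at 2 months, and the SE of their log2 fold changes (0.17 ± 0.55 and 0.61 ± 0.45) was accordingly wide.

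**Figure D2:**
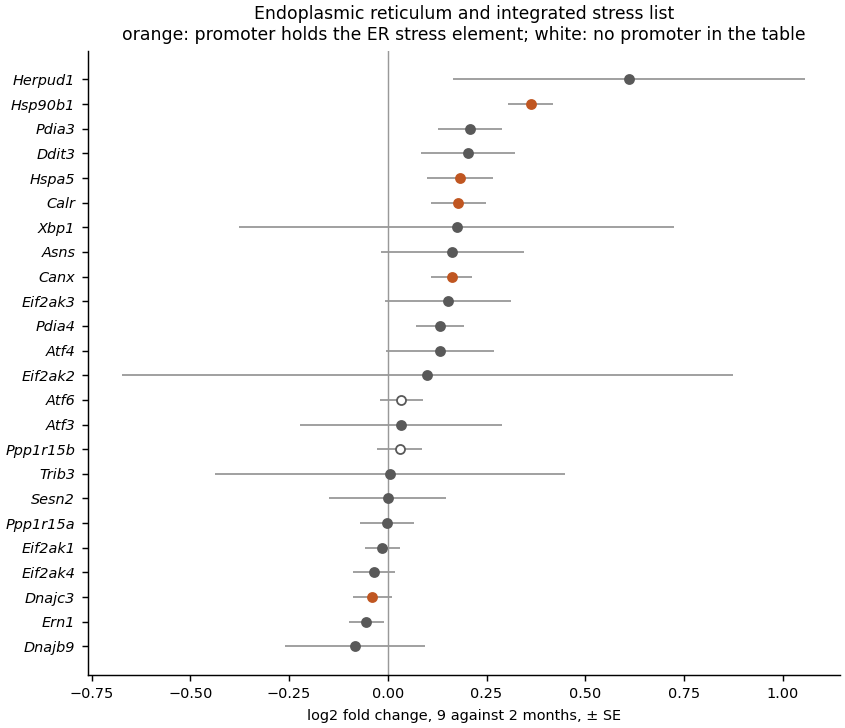
Log2 fold change from 2 to 9 months, with its SE, of the 24 ER and integrated stress genes, in order of size. Orange marks genes whose promoter holds the ER stress response element, grey genes whose promoter does not, and white genes with no promoter in the table. Values run from -0.08 (Dnajb9) to 0.61 (Herpud1), and 4 of the 5 orange genes are above 0, with Hsp90b1 the only DEG.

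ER chaperone genes are known to share a promoter sequence, the ER stress response element (ERSE), which is CCAAT and CCACG with 9 bases of any kind between them and to which the factors NF-Y and Atf6 bind. It was searched on both strands of the RefSeq promoters (250 bases before to 50 after the start, GRCm38.p6). The motif was chosen after the values of Hsp90b1 had been seen. It occurs in 39 of 32851 promoters (0.1187%), and a matching sequence is a description, not a measured binding site. The promoters of 4 of the 6 genes hold it and are shown with the matches in capitals, each read 5′ to 3′ on the strand of its gene. Hsp90b1 holds 2 matches, which do not overlap, and the others 1 each.
Hsp90b1, chr10:86705513-86705676, minus strand: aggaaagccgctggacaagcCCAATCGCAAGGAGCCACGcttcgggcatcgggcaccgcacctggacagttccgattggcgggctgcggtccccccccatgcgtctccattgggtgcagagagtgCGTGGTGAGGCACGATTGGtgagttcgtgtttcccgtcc
Hspa5, chr2:34772005-34772063, plus strand: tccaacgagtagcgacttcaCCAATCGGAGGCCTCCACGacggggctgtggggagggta
Calr, chr8:84847055-84847113, minus strand: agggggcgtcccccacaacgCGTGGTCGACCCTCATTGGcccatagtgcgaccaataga
Canx, chr11:50325780-50325838, minus strand: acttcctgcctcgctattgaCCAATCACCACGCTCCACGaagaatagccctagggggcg
Of the 24 listed genes 22 had a promoter in the table. An ERSE was found in 5 of them, of which 4 had a positive log2 fold change and these 4 an unadjusted p under 0.05, while the fifth, Dnajc3, had a log2 fold change of -0.04 ± 0.05. Among the 17 without an ERSE, 11 were positive and 2 had an unadjusted p under 0.05. As the element is known from promoters of ER chaperones, this split is not separate from the higher values of those chaperones in the list. The related ERSE-II, which is ATTGG and CCACG with 1 base of any kind between them, occurs in 12 promoters (0.03653%), among them that of Herpud1.

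An ERSE was found in the promoters of 24 tested genes, the 5 of the list included. Of these 24, 19 had a positive log2 fold change from 2 to 9 months and 8 an unadjusted p under 0.05, all 8 higher, with a median of 0.10. Among all 24360 gene symbols tested, these 24 included, 47.97% were positive and 3.641% were higher at an unadjusted p under 0.05. The 8 were Hsp90b1, Canx, Calr, Hspa5, Derl3, which takes part in the disposal of misfolded ER proteins (log2 fold change 0.17 ± 0.07), Tdrd9, a germ cell helicase (0.36 ± 0.08), and the near copies Xlr3b (0.32 ± 0.09) and Xlr3c (0.52 ± 0.10). Without the 5 genes of the list, among them Hsp90b1, whose values prompted the search, 15 of 19 were positive and 4 had an unadjusted p under 0.05, of which Xlr3b and Xlr3c share reads. Other mice gave other counts. In the first set 10 of these 24 genes were positive (48.67% of all symbols) and 1 was higher at an unadjusted p under 0.05. Between 4 and 14 months 15 of 24 were positive (46.14% of all), with 4 higher and 2 lower at that p. In the cumulus cells of the same mice 13 of 20 were positive (46.09% of all), with 1 higher.

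In the other 36 gene lists there was no DEG by edgeR. DESeq2 on the same sums called 4 genes of these lists, namely Ooep, Obox1, Obox5 and Cnot7, and voom with the mouse as a random effect called none of them. The counts at an unadjusted p under 0.05 that follow stand against 7.66% of all genes tested, and many of them are near that share. The lists of meiosis came first, because errors of chromosome segregation rise with maternal age. Of 21 cohesin genes and their regulators, 1 had an unadjusted p under 0.05. This was Smc1b, the meiotic cohesin subunit, at 9.43 ± 1.62 and 7.54 ± 1.67 CPM (log2 fold change -0.36 ± 0.15, FDR = 0.589), with mouse means that overlapped. Esco2, which acetylates cohesin, was at 269 ± 25.001 and 291 ± 10.2 CPM (0.10 ± 0.05). The median over the cohesin list was -0.004. Of the 19 segregation genes named in the study, 3 reached an unadjusted p under 0.05 (2 higher and 1 lower), with the kinetochore genes Ndc80 at 0.25 ± 0.08 and Knl1 at 0.16 ± 0.07, and a median of 0.003. The study named these genes from oocytes under calorie restriction, a comparison of other mice. Of 20 genes of the spindle checkpoint and the chromosomal passengers 3 did, all lower, with the kinases Aurkc at -0.15 ± 0.05 and Aurka at -0.13 ± 0.05. Of 23 genes of meiotic arrest and resumption 2 did, the cyclin Ccnb2 at 0.17 ± 0.05 and the phosphatase Cdc25b at 0.13 ± 0.05.

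Lists of genes that belong to the oocyte itself gave no DEG either, and their counts stand against the same 7.66%. Of the 16 oocyte transcription factors 5 had an unadjusted p under 0.05, 4 of them lower. They included the homeobox genes Obox5, at 459 ± 45.3 and 395 ± 30.4 CPM (-0.25 ± 0.05, FDR = 0.109), and Obox1 (-0.17 ± 0.04, FDR = 0.247). In the subcortical maternal complex 8 of 9 genes were positive, with a median of 0.03. Ooep, a member of that complex, was at 490 ± 19.96 CPM in the mice at 2 months and 556 ± 32.4 CPM at 9 months (0.18 ± 0.04, FDR = 0.236), and its lowest mouse at 9 months, at 509.5 CPM, was just above its highest at 2 months, at 507.6 CPM. Between 4 and 14 months Ooep had the opposite sign (-0.21 ± 0.05). Of 24 genes for storage, translation and decay of maternal mRNA 4 had an unadjusted p under 0.05, among them the deadenylase Cnot7 (-0.18 ± 0.04) and the RNA-binding protein Dazl (0.13 ± 0.04). Of 14 genes of the zona, egg surface and growth factors 2 did, Astl (0.14 ± 0.05) and Oosp2 (-0.15 ± 0.07). Dnmt1 (0.10 ± 0.03) and Dnmt3l (0.12 ± 0.05) did among 13 genes of DNA methylation and imprint protection, and 1 of 33 histone modifiers (Setd1b, 0.14 ± 0.07), 3 of 66 core histones and 5 of 44 DNA repair genes did. Of 16 actin nucleators and polarity genes 2 did, Myo10 (0.10 ± 0.05) and Ezr (-0.64 ± 0.21).

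Lists of energy metabolism and protein turnover had medians between -0.05 and 0.01, and their counts too are to be read against 7.66% of all genes. None of 13 mitochondrially encoded protein genes had an unadjusted p under 0.05, and 3 of 79 nuclear genes of the respiratory chain did, all lower, led by Sdha of complex II (-0.19 ± 0.05). Among ribosomal proteins 4 of 84 cytoplasmic and 1 of 78 mitochondrial genes did. Of 47 proteasome genes 4 did, all lower, with the assembly chaperone Psmg1 at -0.31 ± 0.08 (FDR = 0.263), and 14 of the 47 were positive. Of 32 autophagy and lysosome genes 1 did (Wipi1, -0.38 ± 0.17), and of 28 antioxidant enzymes 3, with Prdx6 at 0.35 ± 0.14 and Glrx2 at -0.76 ± 0.34. In further lists an unadjusted p under 0.05 was reached by 1 of 7 sirtuins (Sirt1, 0.22 ± 0.08), 1 of 26 genes of p53 and apoptosis (Casp2, -0.16 ± 0.06) and 5 of 25 genes of cholesterol synthesis and uptake (3 higher, with Cyp51 at 0.51 ± 0.18 and Hsd17b7 at 0.25 ± 0.09). It was also reached by 2 of 15 steroid synthesis genes, both higher (Hsd3b1, 0.67 ± 0.30, and again Hsd17b7), 2 of 23 genes of fatty acid oxidation, both higher (Hadh, 0.52 ± 0.17, and Eci2, 0.49 ± 0.23), 2 of 19 clock genes (Nr1d2, 0.44 ± 0.15, and Rora, -0.17 ± 0.08), 2 of 19 immediate early genes, 3 of 18 interferon and inflammation genes and 0 of 10 abundant noncoding RNAs.

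Genes at 10 CPM or more with the smallest p in each direction that were not DEGs completed the list. On the higher side they were Cxcr3, a chemokine receptor, at 45.6 ± 5.68 and 66.7 ± 11.3 CPM (0.57 ± 0.11, FDR = 0.0613), Xlr3c, at 29.1 ± 2.81 and 41.8 ± 5.34 CPM (FDR = 0.104), and Rest, a repressor of neuronal genes, at 356 ± 41.8 and 433 ± 5.61 CPM (0.27 ± 0.06, FDR = 0.138). Tceal8 (0.58 ± 0.12), Pdpn, a membrane glycoprotein (0.26 ± 0.06), and Myh9, the heavy chain of nonmuscle myosin (0.22 ± 0.05), followed, with FDR between 0.163 and 0.187. On the lower side they were Kif22, a chromosome-binding kinesin, at 338 ± 13.8 and 289 ± 8.70 CPM (-0.23 ± 0.05, FDR = 0.1003), Gm6210, Obox5, Slc7a2, a transporter of cationic amino acids (-0.24 ± 0.05, FDR = 0.153), and Slc5a12, a transporter of lactate, at 13.5 ± 1.09 and 8.85 ± 1.79 CPM (-0.60 ± 0.13, FDR = 0.163).

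On the first principal components no difference between the ages was detected over all mice, by tests that do not take plate into account. PC1 and PC2, computed from log10(RPKM + 1), held 5.80% and 4.06% of the variance. The mouse means of the PC1 score were -1.55, -0.110, -3.20, 1.97 and 2.03 at 2 months and 1.84, 1.65, 0.599 and -0.0330 at 9 months, with a difference of 1.19 (exact permutation test over 9 mice, two-sided, p = 0.413). For PC2 the difference was -0.771 (exact permutation test, two-sided, p = 0.365). Within a plate the PC1 means of the ages did not overlap, but in opposite directions, with 9 months higher on B1 (1.84 and 1.65 against -3.20 to -0.110) and lower on B2 (0.599 and -0.0330 against 1.97 and 2.03). The distance between oocytes of 1 mouse, 1 minus the correlation of their log10(RPKM + 1), was 0.0292 ± 0.00109 at 2 months and 0.0287 ± 0.000935 at 9 months (exact permutation test, two-sided, p = 0.444), and no difference in spread between oocytes was detected. The mitochondrially encoded share of counts was 0.547 ± 0.124% and 0.521 ± 0.0558% (exact permutation test, two-sided, p = 0.683), with 0.683% and 0.681% in the 2 mice at 2 months on plate B2 and 0.440 to 0.473% in the 3 on B1.

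**Figure D3:**
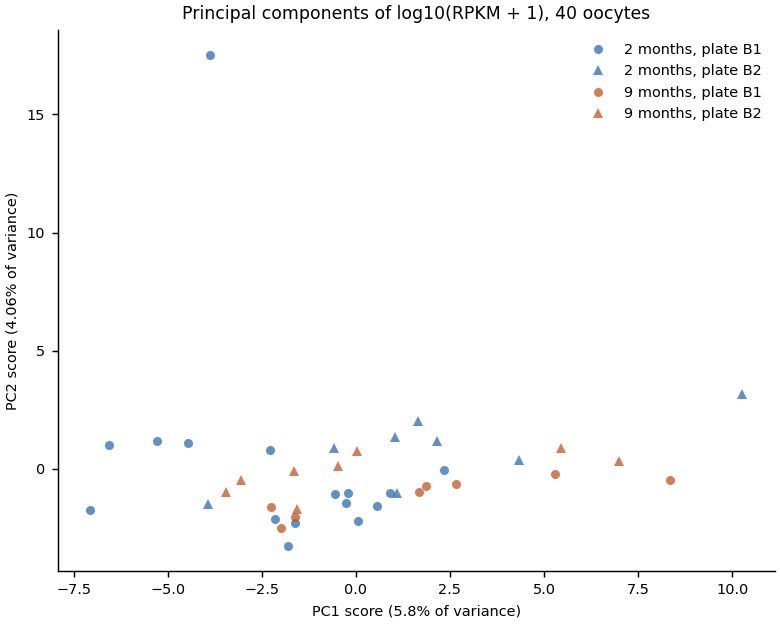
Scores of the 40 oocytes on PC1 (x axis) and PC2 (y axis) of log10(RPKM + 1), with the share of variance of each. Colour is age and shape is plate. Oocytes of both ages are spread through each other along PC1, and 1 oocyte at 2 months, of the mouse 2mo34 on plate B1, lies at 17.5 on PC2, where the others reach 3.15 at most.

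In the first set the same ages were available from other mice, 2 mouse labels at 2 months (young) and 4 at 9 months (middle). The labels held unequal numbers of oocytes, and Middle3 rested on a single oocyte after 1 library was left out. No gene of 24769 was a DEG there by the quasi-likelihood test of edgeR (0.0%). This held on sums per mouse (667 genes at an unadjusted p under 0.05) and on single libraries (1999 genes). The study, with edgeR on single libraries, reported a small number of DEGs in this comparison. Which edgeR test it ran is not stated, and why the numbers differ was not tested. All 21 DEGs of the second set had the same sign in the first set, where 49.76% of all genes were positive. Of the 21, 9 had an unadjusted p under 0.05, against 2.31% of the 23368 genes tested in both sets. The 21 are not separate results, as Sirpb1a, Sirpb1b and Sirpb1c share reads, and so do Hspa8, Gm8355, Gm15459 and Gm26825. All of the Sirpb1 genes are among the 9. The share of all genes with the same sign in both sets was not counted. Sirpb1c was at 6.34 and 7.70 CPM in the 2 young mice and at 1.62 to 4.67 CPM in the 4 middle mice (log2 fold change -1.29 ± 0.38), and Irf8 at 20.2 and 21.2 CPM against 9.97 to 15.3 CPM (-0.68 ± 0.20). Both kept the groups apart. Syde1 was at 4.37 and 4.86 CPM against 6.55 to 17.6 CPM (1.33 ± 0.41), Cdo1 at 247 and 344 CPM against 76.9 to 214 CPM (-0.94 ± 0.34) and Hsp90b1 at 114 and 122 CPM against 138 to 151.3 CPM (0.29 ± 0.13). Nedd4, by contrast, spread from 23.7 to 115 CPM over the middle mice around the young values of 74.0 and 75.8 CPM (-0.09 ± 0.42). Hspa8 was at 501 and 524 CPM against 365.5 to 506 CPM (-0.20 ± 0.15).

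**Figure D4:**
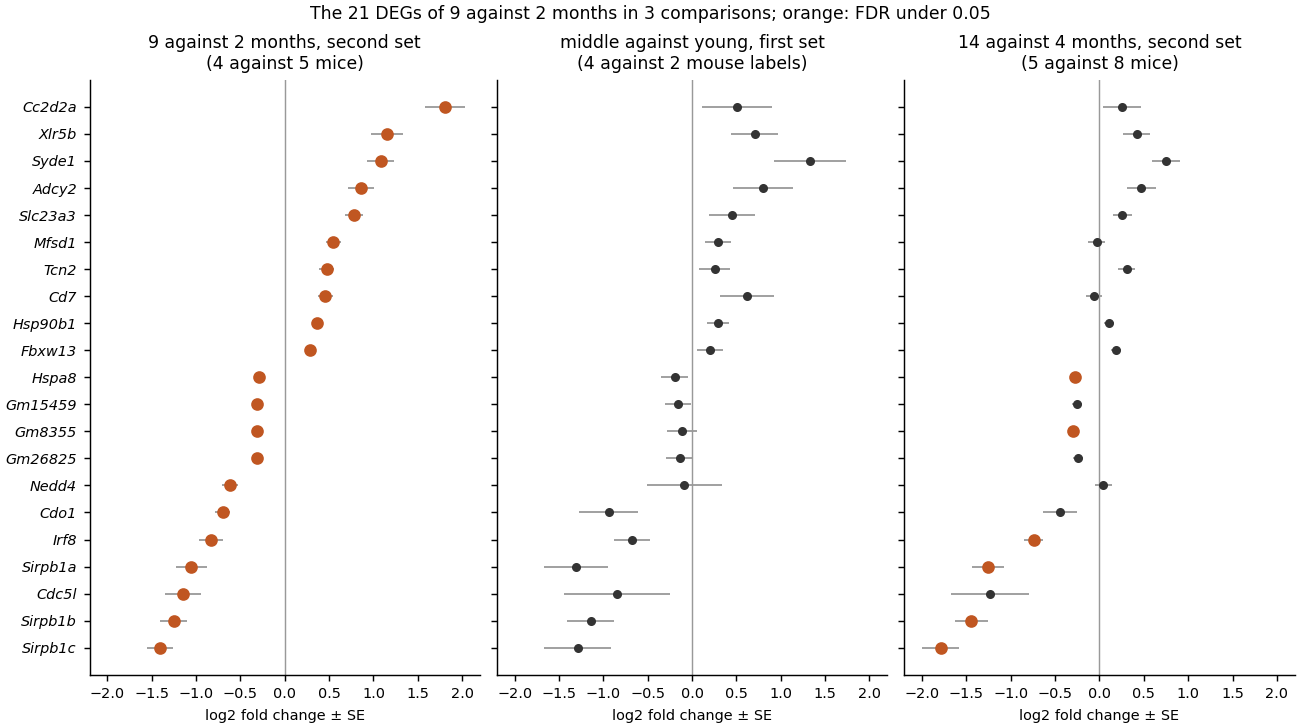
Log2 fold change with its SE of the 21 DEGs in 3 comparisons that share no mouse, in the same order in each panel. Orange points passed an FDR of 0.05 in that panel. The signs of the second set (left, where the genes were chosen) recur for 21 of 21 genes in the first set and for 18 of 21 between 4 and 14 months, where Mfsd1, Cd7 and Nedd4 lie on the other side of 0. Near copies that share reads are counted as separate genes.

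Oocytes at 14 months were compared with oocytes at 4 months in 5 and 8 further mice of the second set, which are not those at 2 and 9 months. Here 58 of 25470 genes were DEGs (0.228%), 32 higher (0.126%) and 26 lower (0.102%). Of the 21 DEGs of 9 against 2 months, 18 had the same sign, 16 an unadjusted p under 0.05 and 6 were DEGs again, all 6 lower. Of the 24001 genes tested in both comparisons, 10.4% had an unadjusted p under 0.05 and 46.14% were positive. The 6 DEGs of both comparisons were Sirpb1c (-1.79 ± 0.21), Sirpb1b (-1.45 ± 0.18), Sirpb1a (-1.26 ± 0.18), Irf8 (-0.74 ± 0.10), Hspa8 (-0.27 ± 0.05) and its copy Gm8355 (-0.30 ± 0.06). Here too the Sirpb1 genes share reads, as do Hspa8 and its copies, so these counts are not of separate results. None of the 10 higher DEGs was a DEG here. Syde1 was the nearest (0.75 ± 0.16, FDR = 0.0546), and Cc2d2a (0.26 ± 0.22) and Hsp90b1 (0.11 ± 0.06) were further off. Mfsd1 (-0.03 ± 0.10), Cd7 (-0.06 ± 0.09) and Nedd4 (0.05 ± 0.10) had the opposite sign, with changes smaller than their SE. Of the genes that were not DEGs above, Xlr3c (0.48 ± 0.09), Rest (0.26 ± 0.05) and Gm6210 (-0.33 ± 0.06) were DEGs here.

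The levels over the ages were set side by side, with no test between 9 and 14 months. As the genes were chosen for a difference between 2 and 9 months, an extreme mean at 9 months is favoured by that choice. Sirpb1c was at 10.3 ± 3.23 CPM in 8 mice at 2 months without hyperovulation, 9.26 ± 0.973 at 2 months, 7.26 ± 0.756 at 4 months, 3.51 ± 0.624 at 9 months and 2.10 ± 1.08 at 14 months. Irf8 was at 20.1 ± 4.01, 19.8 ± 3.68, 17.6 ± 2.22, 11.1 ± 1.55 and 10.8 ± 1.31 CPM in the same order, so that 9 and 14 months lay within 1 SD of each other. Hspa8 was at 661 ± 51.7, 593 ± 16.3, 538 ± 41.2, 486 ± 25.2 and 452 ± 25.4 CPM. These 3 genes had their highest mean at 2 months without hyperovulation and their lowest at 14 months, and neighbouring ages often overlapped within their SD. Syde1 ran the other way, at 3.24 ± 0.798, 4.22 ± 0.937, 5.71 ± 1.22, 8.91 ± 0.699 and 9.89 ± 2.60 CPM. Cc2d2a did not follow the order of ages, with 1.96 ± 0.7095, 1.27 ± 0.331, 2.39 ± 0.367, 4.23 ± 1.30 and 2.76 ± 1.27 CPM, the highest mean being that at 9 months. Hsp90b1 was at 119 ± 8.60, 111 ± 9.63, 127 ± 9.29, 144 ± 5.46 and 139 ± 8.02 CPM, and Nedd4 at 53.6 ± 11.4, 57.3 ± 6.85, 44.8 ± 7.47, 37.5 ± 4.24 and 46.6 ± 4.91 CPM.

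**Figure D5:**
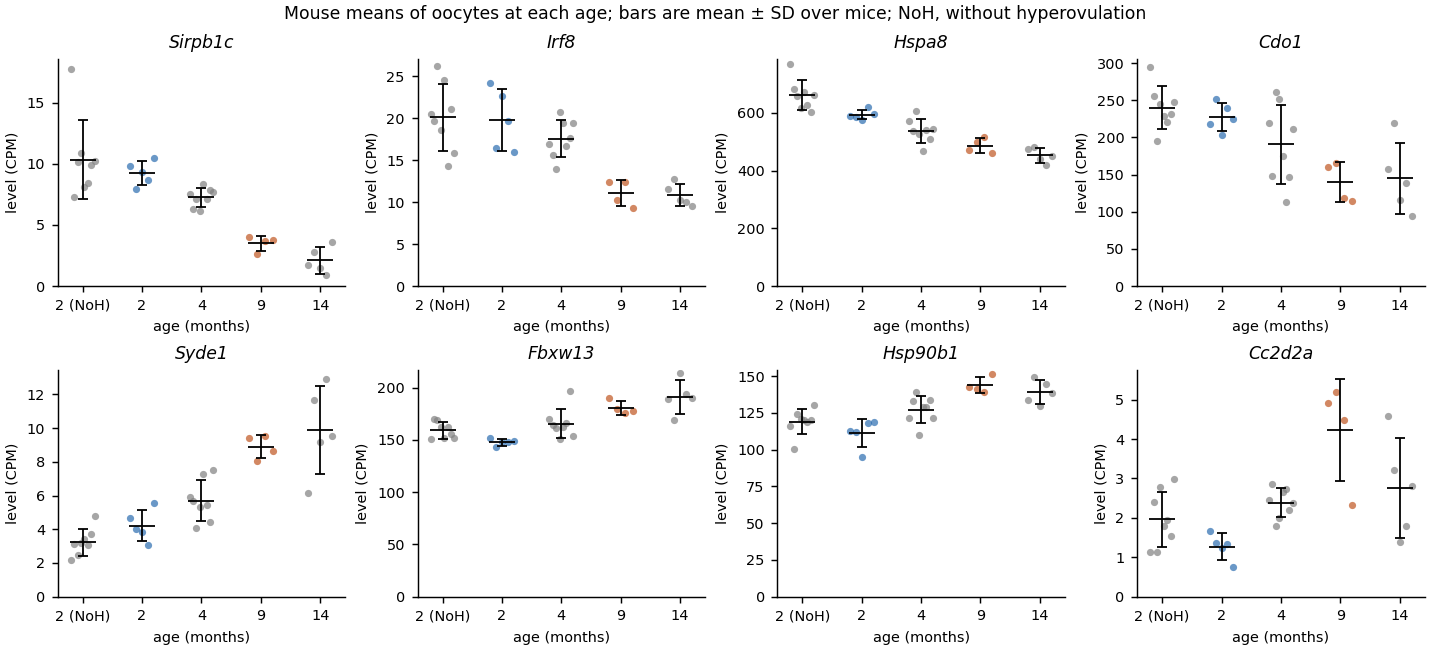
Mouse means (dots, CPM, linear axes from 0) of 8 DEGs in oocytes at 2 months without hyperovulation (8 mice), 2 (5), 4 (8), 9 (4) and 14 months (5). Bars are the mean ± SD over mice, blue and orange mark the ages compared here. From 2 months with hyperovulation to 14 months the mean of Sirpb1c goes from 9.26 to 2.10 CPM and that of Syde1 from 4.22 to 9.89 CPM, while Cc2d2a and Hsp90b1 are highest at 9 months. At 2 months without hyperovulation, which differs in treatment, Sirpb1c is at 10.3 and Syde1 at 3.24 CPM.

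Cumulus cells from around the same oocytes were tested in the same way. Between 9 and 2 months 8 of 24833 genes were DEGs (0.0322%), all higher, and none of the oocyte DEGs was among them. This number too rested on single mice, with 0 without 2mo36, 9mo21 or 9mo24, 1 without 2mo35, 24 without 2mo34 and 53 without 9mo22. Of the 21 oocyte DEGs 16 were expressed highly enough in cumulus cells to be tested. Of these, 13 had the same sign and 6 an unadjusted p under 0.05. Of the 18815 genes tested in both, 10.6% had such a p and 46.12% were positive. The 6 were Tcn2, Irf8 and Hspa8 with its copies Gm8355, Gm15459 and Gm26825, which share reads with it. Irf8 had the opposite sign in cumulus cells (log2 fold change 2.94 ± 1.07), where it was hardly detected (0.0587 ± 0.131 and 0.520 ± 0.496 CPM). Hspa8 was at 1281 ± 339 and 1018 ± 75.8 CPM in cumulus cells (log2 fold change -0.34), a change as large as in oocytes but with a wider spread between mice (FDR = 0.407). The difference of the age effect between oocytes and cumulus cells was a DEG for 1 of 18815 genes (0.00531%) and for none of the 16 (8 at an unadjusted p under 0.05, against 9.17% of all genes), so no oocyte DEG was shown to be particular to oocytes. Sirpb1a, Sirpb1b, Sirpb1c, Xlr5b and Fbxw13 were at 0 in the cumulus libraries of all 9 mice and could not be tested.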

How the data were processed

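Single oocytes of mice at 2 and 9 months were profiled by RamDA-seq, which copies total RNA along whole transcripts without molecular identifiers, so errors cover counting and the spread between mice but not duplicated reads. Per the labels and the study's methods, the authors used Fastq-mcf for trimming, HISAT2 2.0.5 for alignment to GRCm38, and featureCounts 1.5.1 with GENCODE annotation for counting. The expected count values deposited by the authors share reads between genes with the same sequence (36.9% of nonzero oocyte values were not whole) and were rounded before testing. The RPKM values deposited by the authors were counts divided by length and library total (100% matched), and were used for principal components and distances only. Strandedness is not given in the sources used here. Of 42349 gene identifiers 42230 had a symbol in GENCODE vM21. Promoters came from RefSeq.

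Groups, mice and plates came from the labels. Counts were summed per mouse and tested with edgeR 4.0.16 in R 4.3.3 (TMM normalization, quasi-likelihood F test, plate as a covariate) on the genes detected in 5 or more of the 40 libraries, at an FDR of 0.05. The study tested single libraries, which is an alternative here. The test was tried on simulated data before use. There 13 of 184 calls were false (7.07%), and 58% of changes of 1.25-fold and 90% of changes of 1.5-fold were recovered. The simulated data held no plate effect, and changes were planted only in genes above a set level. The rates therefore do not cover the lowest DEGs, such as Cc2d2a. With 184 calls against 21 in the data the FDR cut-off was also looser, so the recovered shares may be too high for these data. SE is that of the log2 fold change, and levels are means over the oocytes of a mouse. Named genes were the DEGs of at least 10 CPM, up to 12 in each direction, filled up with the smallest p, then DEGs under 10 CPM after their values were seen, and, in each of 37 gene lists, its DEGs or up to 2 genes with the smallest p, though for several lists counts alone are given. Members, lists and tests were chosen with earlier results of these data known. DESeq2 1.42.0 and limma 3.58.1 were alternatives. In the first set, 1 oocyte library of the mouse Middle3 that correlated more with cumulus cells was left out. Its RPKM values were not used. The result of 1 gene list is not reported here.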

Additional observations from a re-analysis of the deposited data

Results flagged for a closer look

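Of 80 groups of mouse means, 4 had 1 mouse far from the others, where chance gives about 1 in 20. Myh9 was at 218.4 CPM in 9mo24 and at 206.2 to 207.9 CPM in the other 3 mice at 9 months. Nedd4 was at 43.86 CPM in 9mo22 and at 34.87 to 35.78 CPM in the other 3. Cdc5l was at 4.032 CPM in the same mouse, 9mo22, and at 1.896 to 2.2 CPM in the other 3, so that it was nearest to the mice at 2 months. Slc5a12 was at 15.37 CPM in 2mo36 and at 12.72 to 13.27 CPM in the other 4 mice at 2 months.

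The change with age differed between oocytes and cumulus cells for Cited2, a transcriptional coactivator that binds CBP and p300, with a difference of -0.9999 ± 0.126 on the log2 scale (FDR = 0.0173, edgeR interaction within mice). In oocytes its log2 fold change was -0.0007 and in cumulus cells 1.01.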

How the results depend on the processing

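The number of DEGs between 9 and 2 months was 21. It was 19 without plate, 20 with RLE factors, 20 with the filter of filterByExpr, 24 with cumulus markers as a covariate and 25 without the oocyte of 2mo34 that lay apart on PC2. It moved further with single libraries as units (34 with plate, 36 without), with voom and the mouse as a random effect (32), with DESeq2 (64) and with no filter on low counts (133, of 31034 genes tested). It was 13 with near copies summed, where Tcn2, Cd7 and Cdc5l had an FDR of 0.05112, 0.06027 and 0.06027, and 0 on plate B1 and 0 on B2 alone. Near copies, the oocyte apart and the alternatives for 14 against 4 months were added after seeing the data. With each mouse left out it ranged from 6 to 21. None of the 21 changed sign in any of these fits. Of the 9 fits that left out a mouse, Syde1 and Hspa8 were called in 7, Hsp90b1, Fbxw13, Nedd4 and Gm26825 in 5, Mfsd1, Xlr5b and Irf8 in 4, Gm8355, Gm15459 and Sirpb1a in 3, Tcn2 in 2, and Cd7, Adcy2 and Cdc5l in 1. With libraries as units and plate, Adcy2, Nedd4 and Cdc5l were not called, and with voom Cdo1 (FDR = 0.059), Adcy2, Nedd4, Sirpb1a and Cdc5l were not. Between 4 and 14 months 171 genes were called with libraries as units (58 with mice, 45 without plate), and in cumulus cells 366 (8 with mice, 0 to 53 with each mouse left out). The first set gave 0 in every fit. The age difference of PC2 turned to 1.3952 with a pseudocount of 0.1, and ran from -1.5456 to 0.48971 with mice left out, the last without 2mo34. That of the mitochondrial share ran from -0.05262 to 0.0081193 percentage points, and was above 0 without 2mo35 or 2mo36. The log2 fold change of Dppa3 ran from -0.01542 to 0.04499 with mice left out, and was below 0 without 2mo34 or 9mo21. The causes of these moves were not tested.

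No paired analysis was possible because the mice of the 2 ages differ and share no number, and only the plate joins them. Shared reads leave the copies of Hspa8, Sirpb1 and Xlr5 apart from each other uncertain, and low transcripts such as Cc2d2a rest on few counts.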

Other observations

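One oocyte of the mouse 2mo34 on plate B1 stood apart on PC2, with a score of 17.5 against at most 3.15 in the other 39 oocytes. PC2 without that mouse correlated with the PC2 of all oocytes by 0.4645 over the remaining libraries, while PC1 did so by 0.9927.

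The X-linked Xlr3 genes, which were not DEGs between 2 and 9 months, had log2 fold changes above 0 in 3 comparisons of oocytes. For Xlr3c they were 0.52 ± 0.10 from 2 to 9 months (FDR = 0.104, edgeR), 0.26 in the first set and 0.48 from 4 to 14 months, and Xlr3b 0.32 ± 0.09, 0.28 and 0.36. Xlr3a had 0.08 ± 0.09, 0.26 and 0.25. As 72.05% of the exonic windows of Xlr3c occur in other genes, these are not separate measurements.

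None of the measured markers of other ovarian cells was a DEG. The endothelial markers summed to 60.48 to 134.7 CPM over the oocytes at 2 months and 78.15 to 121.1 CPM at 9 months, with Cdh5 at 0. In the cumulus libraries of these mice they summed to less, 0 to 27.23 CPM at 2 months and 1.42 to 24.7 CPM at 9 months. Of 3 endothelial markers tested in oocytes 1 was higher at an unadjusted p under 0.05, against 3.64% of all genes. The source of this RNA was not tested. Theca and stroma markers reached at most 5.071 and 4.007 CPM, with Col3a1 at 0 at 2 months and Col1a1 at 0 at 9 months. Red cell markers reached at most 2.211 and 2.134 CPM, with the globins at 0.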
